A study of Mus musculus with 6 samples.

Results

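The cytosines described here lay in the second or a later intron of an annotated mouse transcript, outside CpG islands and outside annotated repeats, and differed in methylation between Tet1 knockout (Tet1 KO) and wild-type (WT) LSK cells. They were chosen by their annotation alone: the authors' 2 deposited lists name a feature for each cytosine, and rows in any intron but the first were taken, leaving out 48 rows labelled as CpG island and 101 further rows labelled as repeat. This left 874 of the 6756 listed sites, 785 of them hypermethylated and 89 hypomethylated in Tet1 KO. The study sorted LSK cells, the marrow fraction without lineage markers but with Sca-1 and Kit, where blood stem and progenitor cells are found, from bone marrow of 6-month-old Tet1 KO mice (3 samples) and WT mice (3 samples), with the strain given in the labels as CD57BL/6 for both groups. Tet1 KO is given without the allele, the deleted part of the gene or the breeding, and whether the 3 samples of a group were taken from separate mice is not stated. The assay was enhanced reduced representation bisulfite sequencing (ERRBS), in which mostly CpG-rich fragments are read. Methylation differences do not show the level of a cell surface marker, so the identity of the sorted cells could not be checked here.

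Tet1 encodes a dioxygenase that oxidises 5-methylcytosine, a first step of DNA demethylation, and bisulfite sequencing does not separate 5-methylcytosine from the hydroxymethyl form. In mammals the bodies of genes are mostly methylated, while CpG-rich starts of genes are mostly not. Later introns are long, hold few CpG islands, and can contain enhancers, internal starts of shorter transcripts and the hairpins of microRNAs.

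Each listed value is 1 methylation difference per cytosine, Tet1 KO minus WT, in percentage points, with 25 as the smallest absolute value listed. List names and signs gave the direction. Neither levels per sample nor p-values nor coverage were used here. The depth is unknown, and no difference can be set against the spread between samples. A partial measure of precision came from 9 CpGs of later introns that were listed on both strands, which carry the same methylation in most CpGs. All 9 had the same sign on both strands, and the 2 values of a CpG differed by a median of 14.0 percentage points (range 2.71 to 24.5) in the authors' deposited table. Over all 57 CpGs listed on both strands in any feature, the median gap was 8.29 percentage points (range 0.149 to 40.4). Only CpGs that reached 25 percentage points on both strands could enter, so pairs with larger gaps may be missed. The shared sign is for the same reason weak evidence of precision. At Rbfox3, for example, the strands were listed at 65.6 and 61.7 percentage points, and at Abcc4 at 43.5 and 29.5 percentage points. Differences between single sites within these ranges are therefore not interpreted below.

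Of the 874 sites, 18 had a microRNA gene as the nearest annotated start, 17 of them hypermethylated and 1 hypomethylated in Tet1 KO. Hypermethylated sites were 89.8% of the 874 and 92.8% of all listed sites, so the direction of the 18 is not read as particular to them. MicroRNAs are short RNAs that pair with messenger RNAs mainly through bases 2 to 8, the seed. Mature sequences are shown for 4 of these microRNAs, each of which lies within a gene that hosts the listed site. They were picked as examples, and some other microRNAs lay nearer to a listed site. Sequences are from RefSeq (GRCm38.p6), 5′ to 3′ with the seed in capitals.
mmu-miR-211-5p: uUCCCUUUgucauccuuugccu
mmu-miR-211-3p: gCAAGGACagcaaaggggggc
mmu-miR-338-5p: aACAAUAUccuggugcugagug
mmu-miR-338-3p: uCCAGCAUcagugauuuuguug
mmu-miR-346-5p: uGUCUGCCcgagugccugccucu
mmu-miR-346-3p: aGGCAGGGgcugggccugcagc
mmu-miR-139-5p: uCUACAGUgcacgugucuccag
mmu-miR-139-3p: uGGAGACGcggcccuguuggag
No seed was shared among these strands.

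Mir211 is carried by Trpm1, a cation channel gene of melanocytes and retina, and the site in intron 9 of 26 of Trpm1 lay 4942 bp from the microRNA, at 32.1 percentage points, per the authors' deposited table. Mir338 lies in Aatk, a neuronal kinase gene, whose intron 2 of 13 held a site 5183 bp from it, listed at 42.1 percentage points. Intron 2 of 15 of Grid1, a glutamate receptor gene, held a pair of sites 10953 and 10986 bp from Mir346, at 32.2 and 32.5 percentage points, per the authors' deposited table. Mir139 is hosted by Pde2a, a phosphodiesterase gene, and its site, in intron 17 of 30, was 29097 bp away at a listed 45.5 percentage points. The closest of all was a site in the last intron (43 of 43) of Ank1, the gene of the red cell membrane protein ankyrin, 3470 bp from Mir3107 and listed at 30.0 percentage points. None of these 6 sites lay in a microRNA itself, and all were hypermethylated, as were most later-intron sites. The hypomethylated one, in intron 2 of 27 of Robo2, was 204553 bp from Mir691, at -37.5 percentage points, per the authors' deposited table.

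The first question was in which direction later introns differed. Hypermethylated sites prevailed: 89.8% of the 874 later-intron sites were hypermethylated in Tet1 KO, beside 92.8% of all 6756 listed sites, and 10.2% were hypomethylated, beside 7.19% of all listed sites. Joined into regions, which are runs of sites that share a direction and follow each other within less than 1000 bp, they formed 558 hypermethylated and 88 hypomethylated regions, so that 86.4% of later-intron regions were hypermethylated (95% interval 83.5 to 88.9%, Clopper-Pearson, for counting error alone), beside 89.4% of all listed regions. Both directions occurred on each of the 20 chromosomes, the 19 autosomes and X, and X held 7 of the sites.

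Losses of methylation were a larger share in later introns than in first introns. Of 646 later-intron regions 88 were hypomethylated (13.6%, exact interval 11.1 to 16.5%), against 47 of 684 first-intron regions outside islands and repeats (6.87%, 5.09 to 9.03%), which is 6.75 percentage points more (p = 5.65e-05 by two-sided Fisher's exact test, 0.000170 after adjustment over 3 comparisons). Against all other listed regions, of which 9.95% were hypomethylated, it was 3.67 percentage points more (Fisher's exact adjusted p = 0.00979). Against regions in second and later exons (40 of 375, 10.7%) it was 2.96 percentage points more and did not pass (adjusted p = 0.202 by the same exact test). Unlike the introns, both of these sets kept island and repeat rows. Across all listed regions 10.6% were hypomethylated. All regions share the same 6 samples, so none is a replicate, and a site's WT level, not used here, sets how far it can go up or down.

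The difference from first introns moved with the distance to a transcription start. Later-intron sites lay a median of 20358 bp (hypermethylated) and 29700 bp (hypomethylated) from the nearest annotated start of any gene, first-intron sites a median of 1144 and 12310 bp. The hypomethylated share of later-intron regions was 0 of 31 under 1 kb from a start, which allows a share of up to 11.2% (exact interval), 12.1% at 1 to 5 kb, 11.3% at 5 to 20 kb, 14.6% at 20 to 50 kb, 17.8% at 50 to 100 kb and 18.6% at 100 kb and over. First-intron regions had 1.09% under 1 kb and 4.31% at 1 to 5 kb, which together held 484 of the 684, and 16.3% at 5 to 20 kb. Under 5000 bp, the share was 9.23% of 130 later-intron regions against 2.48% of 484 first-intron regions (Fisher's exact test, adjusted p = 0.00396). At 5000 bp and over it was 14.7% of 516 later-intron regions and 17.5% of 200 first-intron regions, a difference of -2.77 percentage points (adjusted p = 1 by the same exact test). Stratified over the 6 distance classes, the Mantel-Haenszel difference was -0.215 percentage points (exact conditional test, p = 0.916, adjusted p = 1), so the call did not remain at matched distances. It ended in the same way against all other listed regions, at 1.15 percentage points (p = 0.427, adjusted p = 1 by that exact test). The distance classes were chosen after the values were seen, and none of the 6 classes differed by itself after adjustment (the class 1 to 5 kb had Fisher's exact p = 0.0152, adjusted p = 0.0915).

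**Figure D1:**
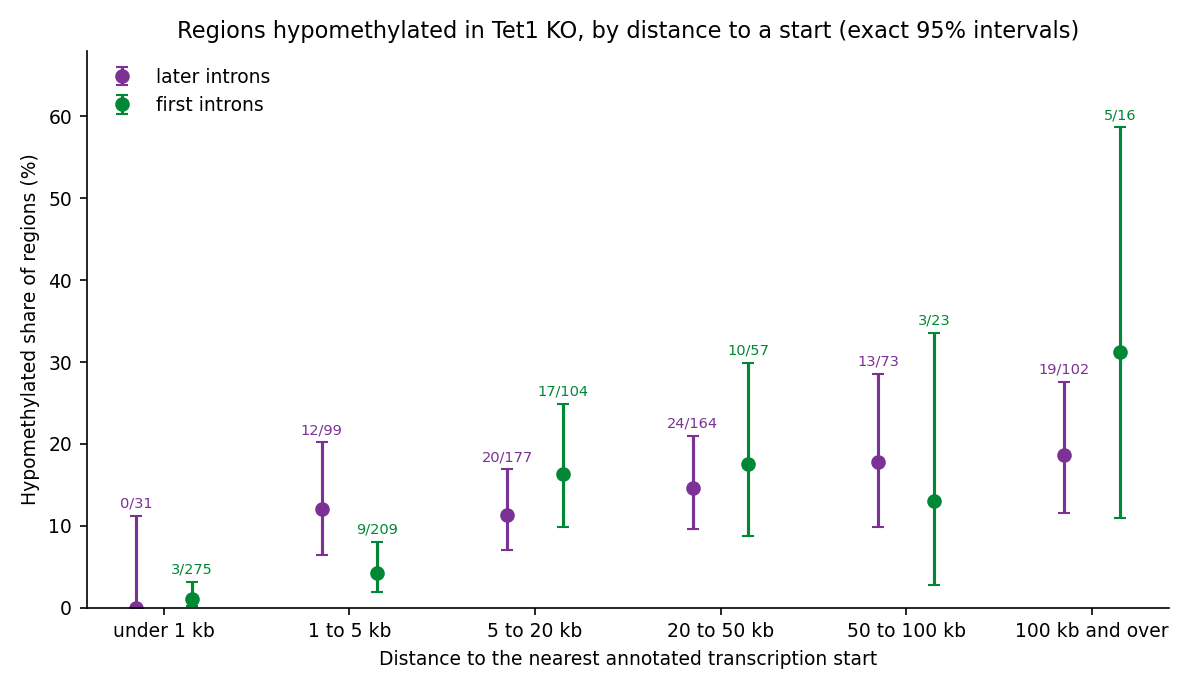
Share of regions hypomethylated in Tet1 KO (y axis, percent) by distance to the nearest annotated transcription start (x axis, 6 classes) for later introns (purple) and first introns (green), with exact 95% intervals and the counts above each point. Later-intron regions were hypomethylated in 12.1% at 1 to 5 kb and 18.6% at 100 kb and over, and the intervals of the 2 kinds of intron overlapped in all 6 classes.

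Within later introns, no difference between the 2 directions in their place along the gene passed a test. Intron 2 held 171 of 558 hypermethylated regions (30.6%) and 26 of 88 hypomethylated regions (29.5%), and the last intron of the transcript held 69 (12.4%) and 8 (9.09%) of them (Fisher's exact test, two-sided, adjusted p = 0.901 and 0.719 over 3 comparisons). Within 5000 bp of a start lay 118 hypermethylated regions (21.1%, exact interval 17.8 to 24.8%) and 12 hypomethylated regions (13.6%, 7.25 to 22.6%), and this gap of 7.51 percentage points did not pass (Fisher's exact adjusted p = 0.348). These tests do not show that the positions are the same: the interval of the hypomethylated share is wide with 88 regions. The size of the gain hardly moved with the number of the intron, with listed medians from 38.8 percentage points for hypermethylated sites of intron 11 and over to 40.2 for introns 4 to 5. All 36 sites under 1000 bp from a start were hypermethylated, and the start was that of the host gene itself in each case. The nearest was a site annotated to intron 2 of 8 of Prickle2, a planar cell polarity gene, 263 bp from another start of that gene.

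**Figure D2:**
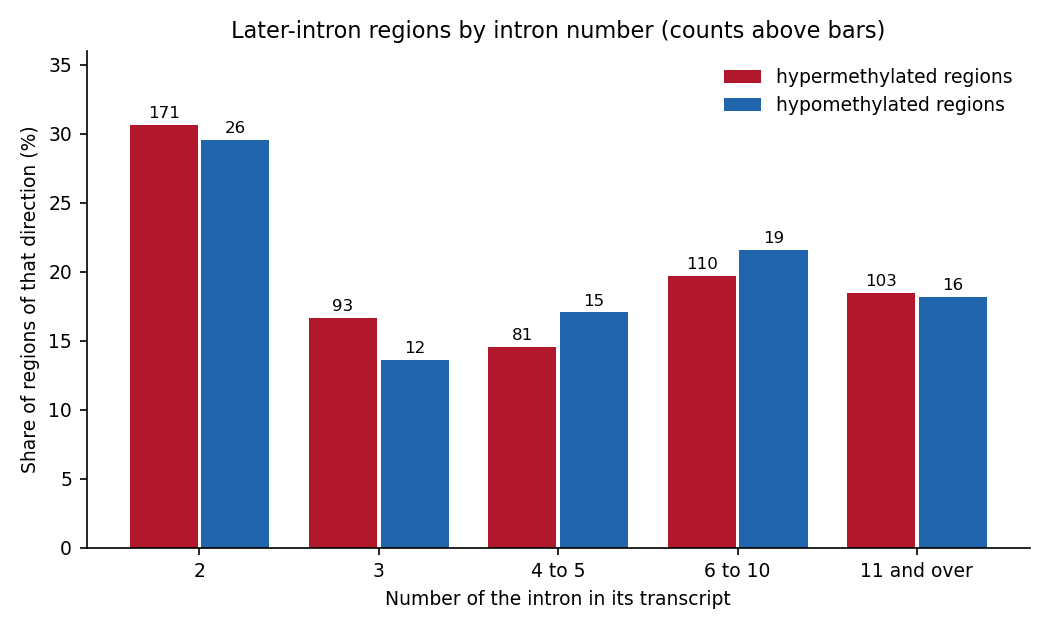
Later-intron regions by the number of the intron in its transcript (x axis) as a percentage of the 558 hypermethylated (red) and 88 hypomethylated (blue) regions (y axis), with the counts above the bars. Intron 2 held 30.6% and 29.5% of them, and introns 4 to 5 held 14.5% and 17.0%.

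In size the 2 directions differed by a few percentage points. The median listed difference was 39.6 percentage points for the 785 hypermethylated sites (quartiles 32.7 and 49.1, highest 87.5) and -34.4 percentage points for the 89 hypomethylated sites (quartiles -42.1 and -29.3, lowest -77.4) in the authors' deposited tables. First-intron sites had medians of 39.2 and -32.1 percentage points. Sites of later exons, where island and repeat rows were kept, had 45.8 and -32.9 percentage points. Sites at or past 60 percentage points in absolute value numbered 71 hypermethylated (9.04%) and 3 hypomethylated (3.37%) in later introns. First introns held 85 (9.57%) and 1 (2.08%) of them, and later exons, with islands and repeats, 141 (19.7%) and 1 (2.44%). No test was run on these sizes.

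Most regions of both directions were single cytosines, 421 of 558 hypermethylated and 87 of 88 hypomethylated ones. Of the 558 hypermethylated regions 137 (24.6%) held at least 2 sites, against 1 of the 88 hypomethylated regions (1.14%). This contrast was not particular to later introns. The shares were 26.1% and 2.13% in first introns, and 45.1% and 2.5% in later exons, where island and repeat rows were kept. The hypermethylated later-intron clusters had a median length of 34 bp, and 100 of the 137 had all their sites on 1 strand, where they may share reads. Within a cluster the listed values ranged over a median of 10.5 percentage points. Some regions lay beside listed sites outside the 874, which include later-intron rows in islands and repeats. Of the hypermethylated regions 55 (9.86%), 30 of them single sites, had such a site of the same direction less than 1000 bp away. Among hypomethylated regions 0 of 88 did. No region of either direction had a listed site of the opposite direction that close. A shorter list gives fewer close pairs, and the part of list length in this contrast was not tested.

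The host genes with the most hypermethylated sites differed in how the sites were laid out. The host is the gene whose transcript the annotation names at the site. Ptprn2, which encodes a phosphatase-like protein of dense-core vesicles, had 13 hypermethylated sites, more than any other host. Of these 12 lay within 487 bp in intron 12 of 22, at chr12:118398642-118399128 (mm9), and on both strands, with a range from 30.1 to 50.5 percentage points, per the authors' deposited table. The other, in intron 13, was listed at 35.4 percentage points. Rbfox3, the gene of the neuronal splicing factor NeuN, had 11 sites in introns 4, 6 and 7 of 14, spread over 4 regions between 118364610 and 118433722 on chromosome 11, and averaged 48.9 percentage points over the listed sites (32.6 to 68.3). Rbfox3 was also assigned 8 listed hypermethylated sites outside the 874, by host or else by nearest start, whereas Ptprn2 was assigned none. Nrxn2, the gene of a presynaptic adhesion protein, had 6 sites in introns 5 and 16 of 21 on chromosome 19, and the 4 of the largest region were listed at 57.9, 66.5, 53.0 and 33.4 percentage points, per the authors' deposited table.

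Camta1 encodes a calmodulin-binding transcription activator. Its 10 hypermethylated sites fell into 7 regions over introns 6, 7, 9, 11 and 12 of 23, between 150460341 and 150661827 on chromosome 4, at 35.9 to 61.9 percentage points, per the authors' deposited table. They thus were scattered over the gene, while the 11 sites of Mxra7 lay in 2 regions of the last of its 3 introns. Mxra7, named for matrix remodelling, had 9 sites within 457 bp at chr11:116672608-116673064, listed at 29.4 to 57.6 percentage points, and 2 more sites in the same intron at 40.8 and 43.2 percentage points, per the authors' deposited table. Septin9, a gene of the septin cytoskeleton, had 10 sites in 4 regions, each in intron 2 of 1 of its transcripts, over chr11:117093677-117179303. They ranged from 26.8 to 68.5 percentage points.

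Other clusters lay in a kidney and eye regulator, a transporter and a peptide hormone gene. The paired-box factor gene Pax2 had 7 sites in introns 3, 5 and 7 of 9 on chromosome 19 (44836836 to 44899983), all on the minus strand and listed at 28.1 to 54.8 percentage points. Abcc4, which exports cyclic nucleotides, had 5 sites in intron 20 and 1 in intron 26 of 30 on chromosome 14, at 29.5 to 57.5 percentage points, per the authors' deposited table. A930011G23Rik, B230216G23Rik and Gramd1b held 6 sites each. B230216G23Rik, in RefSeq the gene Spx of the peptide hormone spexin, had them 505 to 1684 bp from its start, at 37.8 to 64.8 percentage points, and Gramd1b, a gene of sterol transport, had them in intron 2 of 19 at 39.4 to 48.2. In A930011G23Rik 6 minus-strand sites within 49 bp of intron 2 of 3 (chr5:99908632-99908680) were listed at 44.8 to 53.1 percentage points.

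The largest single gains lay in other genes, each with few sites. Bcas1, a gene of the oligodendrocyte lineage, had a pair of sites in intron 3 of 12 at chr2:170236569-170236577, listed at 76.0 and 87.5 percentage points, the highest of all later-intron sites in the authors' deposited table. Exph5, the gene of a Rab27 effector, had sites at 84.6 and 75.8 percentage points 677 bp apart in intron 3 of 5, on opposite strands. Rnd1, a small GTPase gene, had 4 plus-strand sites in intron 2 of 4 at chr15:98506492-98506521, 1371 to 1400 bp from its start, which were listed at 70.7, 82.7, 80.5 and 74.4 percentage points and so were high throughout. In Kcnip3, a calcium sensor and potassium channel partner, the sites 5 bp apart were listed at 83.9 and 39.6 percentage points, per the authors' deposited table. Elmod1 had 55.2 and 83.8 percentage points in intron 2 of 10, 44 bp apart.

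**Figure D3:**
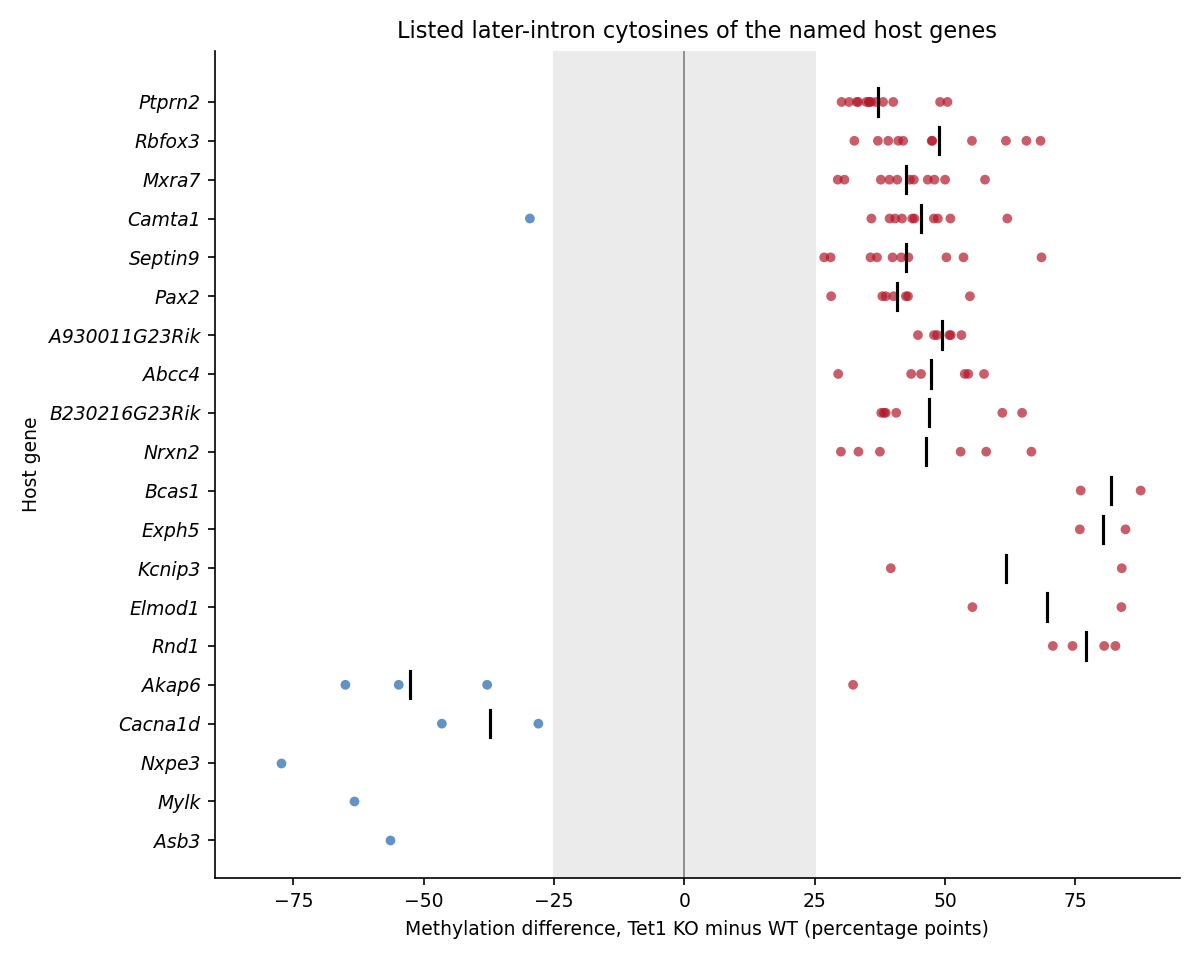
Methylation difference (x axis, percentage points, Tet1 KO minus WT) of each listed later-intron cytosine in the 10 host genes with the most hypermethylated sites, the hosts of the 5 largest gains and the 5 leading hosts of hypomethylated sites (y axis, top to bottom). Points are single cytosines (red hypermethylated, blue hypomethylated), black bars are means of at least 2 sites, and the grey band is the range under 25 percentage points, where no site is listed. The 4 sites of Rnd1 sit between 70.7 and 82.7, and the 3 hypomethylated sites of Akap6 between -65.0 and -37.8.

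Losses were spread over 84 host genes, nearly all with 1 site. Akap6, which encodes an anchor for protein kinase A in heart and brain, was the exception with 3 hypomethylated later-intron sites. They were listed at -54.8 and -37.8 percentage points 16 bp apart in intron 2 of 13 (53955814 and 53955830 on chromosome 12) and at -65.0 percentage points in intron 3. Cacna1d, the gene of an L-type calcium channel, had hypomethylated sites at -46.5 percentage points in intron 39 and at -28.0 percentage points in intron 3 of 46 in the authors' deposited table. The largest loss was at Nxpe3, a gene of the neurexophilin family, with -77.4 percentage points in intron 2 of 5 at chromosome 16, 55884532. After Nxpe3 and the Akap6 site in intron 3 came Mylk, the myosin light chain kinase gene, with -63.4 percentage points in intron 2 of 31 (chromosome 16, 34837063), and Asb3, a SOCS box gene, with -56.5 percentage points in intron 7 of 9 in the authors' deposited table. The sites of Nxpe3, Mylk and Asb3 are single cytosines with no listed neighbour, so no second site bears on them.

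Both directions met in 11 host genes. Hypomethylated sites were only 10.2% of the 874 and 7.19% of all listed sites, and the part of this scarcity in the spacing below was not tested. The nearest opposite sites of a gene were a median of 68251 bp apart, from 23560 bp in Capzb, an actin capping protein gene, to 429956 bp in Camta1. Prickle2 had 3 hypermethylated sites at 46.9, 42.9 and 37.0 percentage points and 1 hypomethylated site at -51.7 percentage points, all in intron 2 of 8, with 26998 bp between the nearest opposite ones. In Ksr2, a scaffold gene of the MAP kinase pathway, sites at 61.6 and 53.0 percentage points in intron 3 and at 33.9 in intron 17 of 19 flanked 1 at -28.2 percentage points in intron 4 in the authors' deposited table. Camta1 had 1 hypomethylated site, at -29.6 percentage points in intron 3, beside its 10 hypermethylated ones, and Akap6 had 1 hypermethylated site, at 32.4 percentage points in intron 5. The other members of this group were Agbl1, Atp2b2, Cux2, Tll2, Vwf and Zbtb16.

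**Figure D4:**
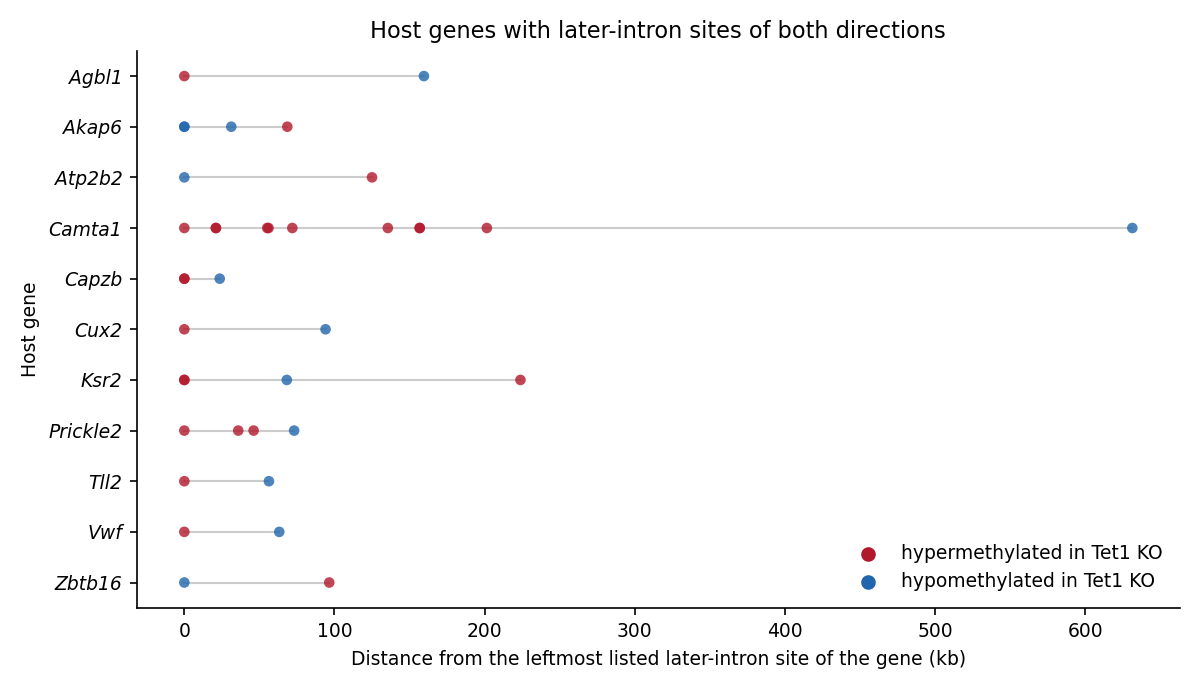
Positions of listed later-intron sites in the 11 host genes (y axis) with sites hypermethylated (red) and hypomethylated (blue) in Tet1 KO, as the distance in kb from the leftmost site of the gene (x axis). Opposite sites stood at least 23560 bp apart, and the hypomethylated site of Camta1 stood 429956 bp from its nearest hypermethylated site.

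The host was often not the gene with the nearest start. A host could be named for 868 of the 874 sites, and for 276 of them (31.8%) the nearest start belonged to another gene: 245 of 781 hypermethylated (31.4%) and 31 of 87 hypomethylated sites (35.6%). The 13 sites of Ptprn2 are nearest to the start of Gm10421, the 11 of Rbfox3 to that of Engase and the 10 hypermethylated ones of Camta1 to that of Vamp3. Counting by nearest start would thus assign these leading clusters to other genes. Listed sites outside the 874 include later-intron rows in islands and repeats. Those without a host transcript were assigned to the gene with the nearest start. The counts that follow therefore mix host and nearest-start assignment, and some of these sites may lie outside the gene named. Of the 465 hosts with hypermethylated later-intron sites alone, 182 (39.1%) had a hypermethylated site outside the 874, and 21 of the 465 (4.52%) had one in a promoter. Among the 73 hosts with hypomethylated later-intron sites alone, 7 (9.59%) had a hypermethylated site outside the 874 and 1 had a hypomethylated one there. These shares also depend on how many cytosines of each gene were read.

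Among 12 gene lists, 70 of 878 distinct genes hosted a later-intron site, and 11 of the 70 had a hypomethylated one. Over all 549 hosts, 84 had a hypomethylated site and 465 had hypermethylated sites alone. A list whose few hosts had hypermethylated sites alone is therefore not read as set apart. The lists are described by counts and medians, beside the median of 39.6 percentage points over all hypermethylated later-intron sites, and no list was tested. Host genes of regulators of stem cells and blood numbered 4 of 46. Zbtb16, the transcription factor gene PLZF, had a site at 65.1 percentage points in intron 2 and one at -42.8 in intron 3 of 6, so it was among the genes with both directions. Hlf, a gene that regulates stem cells, had sites at 44.0 and 52.9 percentage points in intron 2 of 3 in the authors' deposited table. Prdm16 had 31.8 and 37.5, and Foxo3, a gene of stem cell quiescence, had 1 hypomethylated site at -36.4 percentage points. The median of the 5 hypermethylated sites of this list was 44.0 percentage points.

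Some lineage genes were hosts, beside 70 of the 878 distinct genes over all 12 lists, and their counts are not read as set apart from that share. Hypermethylated sites alone were the rule over all hosts (465 of 549). A listed site of any feature was found for 10 B cell genes and 12 T and NK cell genes. B cell genes were hosts in 5 of 40 cases, all with hypermethylated sites alone (8 sites, median 39.97 percentage points). Pax5, which maintains B cell identity, had 4 of them in introns 7, 8 and 9 of 9, at 29.4, 39.3, 52.1 and 32.2 percentage points, per the authors' deposited table, hence near the end of the gene, 107666 to 176957 bp from its start. Cd22, a B cell receptor regulator, had 1 at 63.1 percentage points, and Ebf1, an early B cell factor gene, 1 at 40.6. The other B cell hosts were Lef1 and Tnfrsf13b. T and NK cell genes were hosts in 3 of 42 cases, again with hypermethylated sites alone (7 sites, median 42.2 percentage points): Tox2 had 4 sites at 30.6, 42.1, 42.2 and 52.8 percentage points in intron 3 of 8, Bcl11b, required for T cell commitment, had 38.6 and 44.2 in intron 2 of 3, and Lef1, which is in both lists, had 45.2 in the authors' deposited table.

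Of 32 myeloid genes 2 were hosts, Mmp9 in its last intron (44.9 percentage points) and Prtn3, the neutrophil granule proteinase, also in its last intron (37.2 percentage points), for a median of 41.1 percentage points, per the authors' deposited table. Of 28 erythroid and megakaryocyte genes 2 were hosts, Ank1 and Vwf, with a median of 43.6 percentage points over 2 hypermethylated sites. Vwf, the gene of von Willebrand factor of platelets and endothelium, had 57.1 percentage points in intron 13 and -28.6 in intron 41 of 51. Of 79 blood cancer genes 4 were hosts (7 hypermethylated sites, median 33.7 percentage points, and 2 hypomethylated), among them Pax5, Jak3 with -33.3 percentage points in intron 16 of 24 and the X-linked Bcorl1 with -29.9 in the authors' deposited table.

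Enzymes of DNA methylation and chromatin were hosts in 3 of 91 cases, all hypermethylated (5 sites, median 37.5 percentage points). They were Dnmt3b, a de novo methyltransferase gene, with 51.5 percentage points in intron 2 of 22 at 1558 bp from a start, Chd5 with 46.2 and 33.4 percentage points, and Prdm16. Genes of Wnt, Notch, TGF-β and Hedgehog signalling were hosts in 3 of 96 cases. Those 3 were Dll3, a Notch ligand gene (55.0 percentage points), Lef1 and Tcf7l2 (28.5 percentage points), with a median of 45.2 in the authors' deposited table. Kinase signalling genes gave 7 of 121, with 6 hypermethylated hosts (median 36.7 percentage points) and Jak3. Map3k6 at 51.8 and Prkcb at 42.3 percentage points led the 6 in size.

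Genes of calcium handling and ion channels had the most hosts of any list, 19 of 111, with 20 hypermethylated sites (median 36.6 percentage points) and 5 hypomethylated ones. Hypermethylated sites alone were found in 15 hosts, hypomethylated sites alone in Cacna1d, Itpr1 and Kcnn2, and both in Atp2b2. Voltage-gated calcium channel subunits were 6 of these hosts. Of them Cacna1a (28.7), Cacna1i (47.6), Cacna2d2 (47.3), Cacna2d3 (52.3) and Cacna2d4 (36.6 percentage points, per the authors' deposited table) were hypermethylated, and Cacna1d was hypomethylated. Grin2b, an NMDA receptor gene, had 3 sites at 25.3, 34.3 and 61.7 percentage points in 33 bp of intron 2 of 14. Of the 111 genes, 48 had a listed site in any feature. Channel genes are long and rich in introns, and the part of gene length in this count was not tested.

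Adhesion and matrix genes gave 9 hosts of 119, all with hypermethylated sites alone (11 sites, median 47.4 percentage points), as had 465 of all 549 hosts. Of the 119 genes, 42 had a listed site in any feature. Col1a1, a chain of type I collagen, had 52.0 and 53.0 percentage points in intron 13 of 50, Cdh4, a cadherin gene, had 65.7 in intron 4 of 15, and Cdh22 had 47.9 and 28.3 in the authors' deposited table. Axon guidance and small GTPase pathway genes gave 14 of 122, 12 with hypermethylated sites alone (15 sites, median 34.5 percentage points) and 2, Robo2 and Trio, with hypomethylated ones. Slit1, a secreted guidance cue, had 27.2 and 60.9 percentage points in intron 4 of 36, Epha2 had 34.2 and 50.6, and the receptor Robo3 had 33.0 and 40.9 in intron 2 of 27. In Robo2, a relative of Robo3, the single site went the other way at -37.5 percentage points, per the authors' deposited table.

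**Figure D5:**
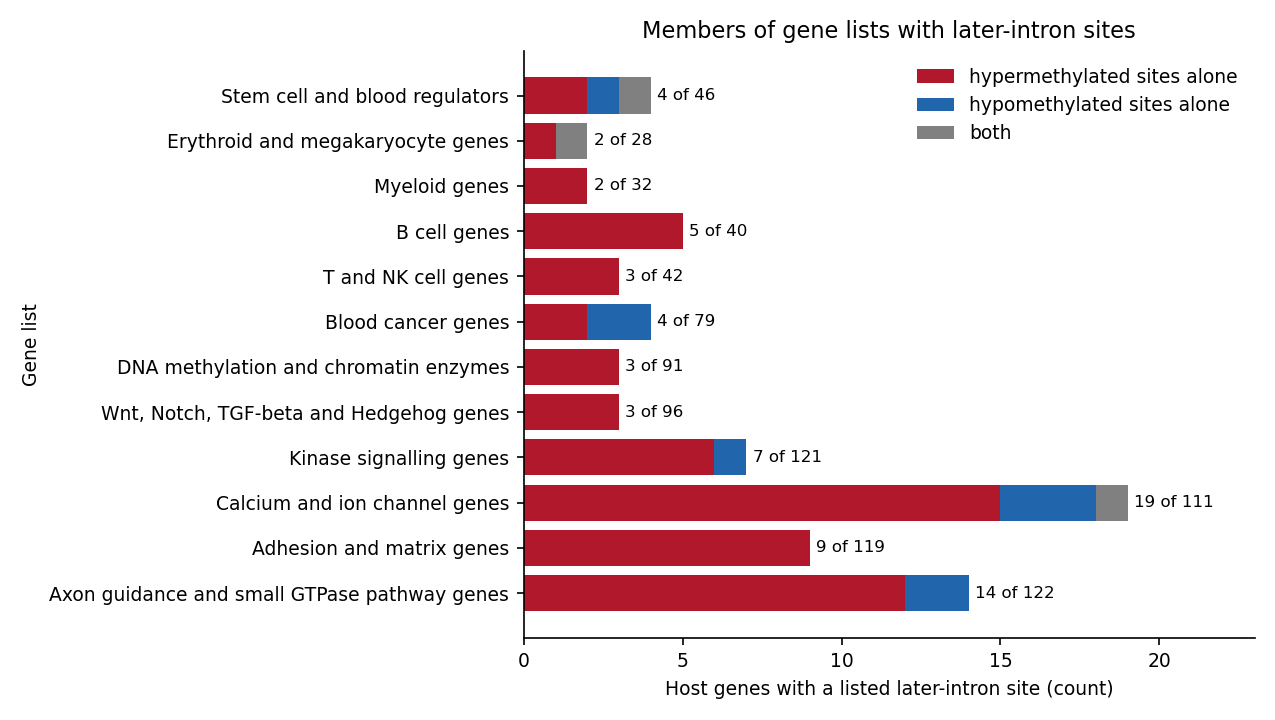
Host genes with a listed later-intron site (x axis, count) in each of 12 gene lists (y axis), split into hosts with hypermethylated sites alone (red), hypomethylated sites alone (blue) and both (grey), with the hosts and the genes found in the reference beside each bar. Calcium and ion channel genes had 19 hosts of 111 and axon guidance and small GTPase pathway genes 14 of 122.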

How the data were processed

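The authors' deposited tables give 1 methylation difference per cytosine in percentage points, beside the nearest start with its distance, a feature and a gene. The submitters' processing notes name Bismark and mm9 but give no role for either. For the caller, coverage minimum and q-value threshold, nothing is given in the sources used here. Columns with values per sample numbered 0.

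Hosts came from the transcript accession at the site, through the files for 640 sites and the RefSeq table of GRCm38.p6 for 228 sites, with 6 unmatched. Positions are those in the site identifiers. Regions joined sites of the same direction and feature less than 1000 bp apart, separately in each set compared, and a region took the smallest distance of its sites. The stratified test was exact and conditional on the counts of each distance class. Fisher's exact tests were two-sided, with Benjamini-Hochberg adjustment over 3 comparisons, and intervals are exact Clopper-Pearson intervals at 95% that cover counting error only (SciPy 1.17.1, pandas 2.3.3, Python 3.11.15). The Fisher tests were tried on simulated independent counts, and the joining on planted clusters. Dependence between regions was not simulated, and the stratified test was not tried in this way. The planned test of counts per replicate was not run.

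The sites, gene lists, tests and named genes were chosen with earlier results of these data known. Named were the 10 hosts with the most hypermethylated and 5 with the most hypomethylated sites, the hosts of the 5 largest and 5 lowest differences, up to 5 hosts with both directions, the hosts of the 5 largest regions and up to 3 members per list. Other list members, hosts of both directions and microRNA hosts were named after their values were seen. The 12 lists held 934 entries, all matched to RefSeq by symbol or synonym. Means and ranges run over listed sites and are not replicate errors. Alternatives were a threshold of 40 percentage points, joining within 200 or 5000 bp, single sites, autosomes, the forward strand, and island and repeat rows kept in. Distance strata were added after the data were seen. Some genes that the naming rule selects are not reported here.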

Additional observations from a re-analysis of the deposited data

How the results depend on the processing

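No paired analysis was possible because the tables hold 1 difference per cytosine and no values per sample; for the same reason leaving out replicates and a stricter coverage minimum were not run. The larger hypomethylated share in later introns than in first introns passed under all 7 other settings of threshold, joining, counting unit, chromosomes, strand and excluded rows, and also under 5000 bp from a start (6.75), but not further away or over all distances: it was -2.77 percentage points at 5000 bp and over and -0.215 when stratified. Against later exons it passed over single sites (4.77, neighbouring sites not being independent) and was -0.0332 percentage points at 5000 bp and over. Against all other regions it did not pass at 40 percentage points (2.83), at 5000 bp and over (0.464) or stratified (1.15). On the forward strand the difference in intron 2 share, hypermethylated minus hypomethylated, turned from 1.10 to -4.13 percentage points, and neither value passed. At 40 percentage points the hypermethylated share of regions was 91.3%, the medians were 50.0 and 48.1 percentage points in absolute value, which the higher threshold itself raises, and 74 regions held at least 2 sites, against 138. Over single sites the hypermethylated share was 89.8%, and on the forward strand 65 regions held at least 2 sites.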

Other observations

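Several further clusters were chosen after their values were seen. Trpc7, a cation channel gene, had 4 minus-strand sites within 38 bp of intron 6 of 11 (chromosome 13), listed at 53.6, 81.7, 63.6 and 67.3 percentage points, per the authors' deposited table, and a further site in intron 2 at 35.6. Matn1, a cartilage matrix gene, had 4 sites within 48 bp of intron 5 of 7 (chromosome 4), at 73.0, 65.7, 51.0 and 63.0 percentage points. Speg, a gene of striated muscle, had 5 sites in intron 2 of 38 that averaged 49.5 percentage points, and Rph3a, a Rab3 effector of synaptic vesicles, had 5 in intron 2 of 21 that averaged 37.0 percentage points, per the authors' deposited table.

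On chromosome 16, 5 of 13 later-intron sites were hypomethylated (38.5%), against 13.4% of all listed sites of that chromosome. This was the highest share among the 20 chromosomes and was picked after the values were seen. Chromosomes 4 (4.85% against 5%), 13 (7.69% against 11.8%) and X (14.3% against 35.4%) went the other way. In Ak5, an adenylate kinase gene, 3 sites within 35 bp on the same strand had the same listed value to 6 decimals, and no other later-intron region held values equal to that precision. Of the later-intron rows labelled as repeats 20 of 101 were hypomethylated, beside 89 of the 874 sites described above.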
